A study of Mus with 7 samples.

Results

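The arrays carry 50 mRNA probes that are printed 10 times each and are listed with a transcript accession, unlike the other probes of the scanner output, for which the files give no transcript. After leaving out the probes of Ppara, Cpt1a, Gsta4 and Kcnn2, 46 of the 60823 probes that are not controls remained, and these are described here. The rule reads probe names and no signal, although it was set, like the grouping of the genes by role, with earlier results of these data known. Through the RefSeq gene table of assembly GRCm38.p6, 42 of the 46 were matched to a gene symbol, and the other 4 are given by their probe name. The probes do not form a pathway. They include enzymes, membrane and trafficking proteins, nuclear proteins, immune proteins, and genes best known from tissues other than heart. Where this set of probes stood after doxorubicin (DOX) was examined gene by gene.

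Male C57BL/6J mice received a single intraperitoneal injection of saline (CON group, replicates 1, 2 and 3) or of DOX at 15 mg/kg (DOX group, replicates 1, 2, 4 and 5), and heart tissue was taken 3 days later according to the methods. The mice of both groups were under isoflurane anaesthesia before the heart was taken, and the labels name no altered allele. Each of the 7 heart samples was hybridized to its own single-colour array. The labels do not give the age of the mice or the number of animals behind a sample, so the p-values measure the spread between these samples.

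DOX is an anthracycline used against tumours that inserts into DNA, blocks topoisomerase II and promotes the formation of reactive oxygen species, and its use is limited by injury to the heart muscle. Heart muscle makes most of its energy by oxidizing fatty acids in mitochondria, with a smaller part from glycolysis, and it is protected against peroxides by enzymes such as the peroxiredoxins and glutathione peroxidases. The whole heart holds cardiomyocytes, fibroblasts, endothelial cells and immune cells. In such tissue fewer cells of a type and less RNA per cell cannot be told apart.

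The values below are log2 signals after quantile normalization across the 7 arrays, averaged over the 10 spots of a probe. Before normalization the DOX arrays were brighter. The median probe signal ranged from 58.8 to 71.2 in the CON group and from 107.7 to 131.7 in the DOX group. For the bright corner control spots, which measure no mouse transcript, the median ranged from 3362 to 3461 in the CON group and from 21808 to 29522 in the DOX group. The scans of the CON arrays belong to one session and those of the DOX arrays to another, so treatment cannot be told apart from session in any comparison given here. Testing required a signal well above background on 3 or more of the 7 arrays, which 44 of the 46 probes met, and 43 of these met it on all 7. A call required an adjusted p under 0.05 from limma and a change of more than 2-fold, with Benjamini-Hochberg adjustment over all 55657 probes tested. SE stands for the standard error of a log2 change. Signals of different probes are not compared as levels, since each probe has its own brightness.

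Compared with the CON group, 19 of the 44 tested probes were called lower in the DOX group and 3 were called higher. Over all probes tested 16.1% were called lower, 15.5% higher and 31.6% either way. Among the named probes these shares were 43.2%, 6.82% and 50%. One of the 19, A_51_P213099, passed the background filter through the CON arrays. With testing limited to probes well above background on all 7 arrays, 18 of 43 (41.9%) were called lower and 3 (6.98%) higher, against 14.6% and 14% of all probes tested in this way. With normexp background correction, which adds an offset of 50 to the signals, 13 of the 44 (29.5%) were called lower and 1 (2.27%) higher, against 7.74% and 8.62% of all probes. Under 75th percentile scaling, 21 of the 44 (47.7%) were called lower and 3 (6.82%) higher, against 27.5% and 11% of all probes. A fit with the replicate number as a block draws each change only from replicates 1 and 2, which both groups share. With this block 20 (45.5%) were called lower and 3 (6.82%) higher, against 16.4% and 15.6% of all probes. The median log2 change was -0.82 over the 44 probes and -0.07 over all probes tested. The median size of the change regardless of sign was 1.05 over the 44 and 0.66 over all. Among the 21013 tested probes whose names start with ASMM10AP1B, for which the files give no transcript, 21.6% were called lower and 10.9% higher, with a median log2 change of -0.29.

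The groups did not overlap for 33 of the 44 probes, or 75%, against 67.4% of all probes tested. All DOX arrays lay below every CON array for 28 of them, A_51_P213099 included (63.6%, against 36.4% of all probes) and above for 5 (11.4%, against 31.1%). The share called lower differed with the brightness of the probe. Of the 17 named probes with a mean normalized log2 signal of 10 and over, 11 (64.7%) were called lower and 0 higher, whereas among all 8003 tested probes of that brightness 22.3% were called lower and 23.5% higher. Of the 16 named probes between 7 and 10, 6 (37.5%) were called lower and 3 higher, and of the 11 under 7, 2 (18.2%) were called lower and 0 higher, or 1 of 10 without A_51_P213099. In all probes of these bands 16.5% and 14.3% were called lower and 14.8% and 13.7% higher.

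Among the 6 genes of metabolism and mitochondria, 4 (66.7%, against 16.1% of all probes tested) were called lower in the DOX group, 0 higher (against 15.5%), and the median log2 change was -1.20 (against -0.07). Of the 44 named probes tested 43.2% were called lower, and of the 17 brightest 64.7%. With so few genes the count does not set this group apart from the named probes as a whole. With normexp 3 of the 6 (50%, against 7.74% of all probes) were called lower. With 75th percentile scaling 5 of the 6 (83.3%, against 27.5%) were called lower. Peroxiredoxin 2 (Prdx2, probe A_51_P147207), an enzyme that reduces hydrogen peroxide, changed most of the 6. Its normalized log2 signal was 15.75, 15.67 and 15.77 on the CON arrays and 13.96, 14.14, 14.17 and 13.97 on the DOX arrays. The DOX arrays lay close together and far below the CON arrays. The log2 change was -1.67 (SE 0.10, limma adjusted p = 1.02e-05), so that the normalized signal was 3.19-fold higher in the CON group. Before normalization its mean signal was also lower in the DOX group, at 25001 against 35938.

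Gpi1 (A_51_P426886) encodes glucose-6-phosphate isomerase of glycolysis. It was at 16.31, 16.39 and 16.44 on the CON arrays and at 15.05, 15.17, 15.03 and 15.15 on the DOX arrays. The groups were separated by more than 1 log2 unit, and the log2 change was -1.28 (SE 0.10, limma adjusted p = 2.27e-05). Pex11a (A_51_P456957), which takes part in the elongation and division of peroxisomes, was among the most even of the probes. It was at 12.28, 12.21 and 12.19 on the CON arrays and at 10.83, 10.86, 10.84 and 10.75 on the DOX arrays, and the SD was 0.05 in each group. Its log2 change was -1.40 (SE 0.09, limma adjusted p = 1.22e-05).

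Dnajc11 (A_51_P398235), a J-domain protein tied to the cristae of mitochondria, was less even. It was at 9.46, 9.57 and 9.39 on the CON arrays and at 8.74, 8.53, 8.54 and 7.59 on the DOX arrays. DOX replicate 5 lay well below the other DOX arrays, which themselves lay below every CON array. The log2 change was -1.12 (SE 0.26, limma adjusted p = 0.00623), and without DOX replicate 5 it was -0.87 and no longer past 2-fold. It was not past 2-fold with normexp either, at -0.99.

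The other 2 genes of this group did not reach 2-fold. Acaa2 (A_51_P125260) encodes the mitochondrial thiolase that carries out the last step of fatty acid beta-oxidation. It was at 16.68, 16.74 and 16.71 on the CON arrays and at 15.68, 15.67, 16.16 and 15.76 on the DOX arrays. No DOX array reached the CON range, and the log2 change was -0.90 (SE 0.14, limma adjusted p = 0.000825). With scaling of the arrays to the 75th percentile the change was -1.33 and was called. Gamt, which makes creatine from guanidinoacetate, had a log2 change of -0.64 (limma adjusted p = 0.000731) and groups that did not overlap.

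Of the 4 genes of muscle and cytoskeleton, 1 (25%, against 16.1% of all probes) was called lower and 0 higher, and the median log2 change was -0.63. With so few genes this count does not set the group apart from all probes. Cav2 (A_51_P279552) encodes caveolin-2, a coat protein of the caveolae of the cell membrane. It was at 13.17, 13.62 and 13.32 on the CON arrays and at 12.05, 11.87, 12.30 and 11.64 on the DOX arrays. The lowest CON array stood clear of the highest DOX array, and the log2 change was -1.40 (SE 0.18, limma adjusted p = 0.000308).

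Hspb7 (A_51_P346445), a small heat shock protein enriched in heart muscle, came nearest to 2-fold from below among the named probes not called. It was at 13.95, 14.02 and 13.70 on the CON arrays and at 13.08, 12.58, 12.48 and 13.57 on the DOX arrays. The DOX arrays were spread widely, with replicate 5 just under the lowest CON array. The log2 change was -0.96 (SE 0.26, limma adjusted p = 0.0125), and without DOX replicate 5 it was -1.17 and was called. Hspb7 is the only gene of the set that is known chiefly from cardiac muscle, and the usual markers of cardiomyocytes are not among the named probes, so the tissue label was not checked against them.

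Actb (A_51_P173760), the cytoplasmic beta-actin often used as a reference gene, gave no call. It was at 10.08, 9.81 and 9.85 on the CON arrays and at 9.77, 9.15, 9.55 and 10.11 on the DOX arrays. The CON range lay inside the DOX range, and the log2 change was -0.27 (SE 0.22, limma adjusted p = 0.307). It was -0.10 without DOX replicate 2, -0.42 without DOX replicate 5 and -0.49 with the replicate number as a block. None of these had a limma adjusted p under 0.05. Actin genes and their pseudogenes are closely alike in sequence, so other transcripts may add to this signal. Cep41, a protein of centrioles and cilia, had a log2 change of -0.30 (limma adjusted p = 0.212), and DOX replicate 5 was its lowest array, at 6.51.

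Of the 8 genes of secreted and immune proteins, 2 (25%, against 16.1% of all probes) were called lower and 0 higher, a share near that of all probes, and the median log2 change was -0.58. Apoe (A_51_P171999), an apolipoprotein that carries lipid and is made by macrophages among other cells, was at 14.78, 14.90 and 15.16 on the CON arrays and at 13.27, 12.75, 13.98 and 13.05 on the DOX arrays. The DOX arrays differed among themselves by more than 1 log2 unit, yet all lay below the CON arrays. Apoe had a log2 change of -1.68 (SE 0.27, limma adjusted p = 0.00102), which is a 3.21-fold higher normalized signal in the CON group.

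Gasdermin D (Gsdmd, A_51_P172231) forms the membrane pores of pyroptosis, an inflammatory kind of cell death. It was at 9.67, 9.68 and 9.71 on the CON arrays and at 8.84, 8.36, 8.54 and 7.55 on the DOX arrays. The CON arrays were nearly equal, and DOX replicate 5 was the lowest of a spread DOX group. This was a log2 change of -1.36 (SE 0.28, limma adjusted p = 0.00306). On DOX replicate 5 the 10 spots lay between 7.49 and 7.64, so the low value was shared by all spots of that array.

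The other 6 genes of this group were not called. H2-M2, an MHC class Ib gene, was at 10.18, 10.65 and 10.54 on the CON arrays and at 11.38, 10.91, 11.50 and 10.64 on the DOX arrays. Its DOX values were higher on balance but reached into the CON range, with a log2 change of 0.65 (limma adjusted p = 0.0372). The adjusted p was 0.0873 with the methods' t-test. It was also above 0.05 in limma without CON replicate 1, 2 or 3 or DOX replicate 1 or 4, but not without DOX replicate 2 or 5. The spots of H2-M2 had SDs of 0.28 and 0.33 on DOX replicates 2 and 4, against 0.03 on the other DOX arrays. For H2-Q7, another MHC class Ib gene whose near-identical neighbours may share its signal, the log2 change was -0.52 (limma adjusted p = 0.12). Without DOX replicate 5 the change of H2-Q7 was -0.30, and with the replicate number as a block it was -0.35. Mzb1, a protein of the endoplasmic reticulum of B cells and plasma cells, had a log2 change of -0.63 (limma adjusted p = 0.0121). Hyal3, of the hyaluronidase family, had a log2 change of -0.75 (limma adjusted p = 0.00132). Il2, a cytokine of T cells, had a log2 change of -0.39 (limma adjusted p = 0.00723). Mzb1, Hyal3 and Il2 were under 2-fold although their groups did not overlap. With scaling to the 75th percentile Hyal3 was at -1.10 and was called, and Il2 was at -0.995. With normexp the changes of Hyal3 and Il2 were -0.46 and -0.18. Whether immune cells became fewer or more was not tested, since only single genes of these cells are named.

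Chromogranin B (Chgb, A_51_P191669), a protein of neuroendocrine secretory granules, is the remaining gene of this group. It was at 7.09, 6.61 and 6.93 on the CON arrays and at 7.73, 7.11, 7.87 and 9.85 on the DOX arrays. Every DOX array lay above the CON arrays, but DOX replicate 5 lay further above the other DOX arrays than these lay above the CON arrays. Its log2 change of 1.27 (SE 0.58, limma adjusted p = 0.0861) was not called. Without DOX replicate 5 it was 0.70 (limma adjusted p = 0.029), and with the replicate number as a block 0.57 (limma adjusted p = 0.0487), both under 2-fold. Without DOX replicate 2 it was 1.61 and was called (limma adjusted p = 0.0386). The 10 spots on DOX replicate 5 lay between 9.81 and 9.89 with an SD of 0.02, so that the spread lay between arrays and not between spots.

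Among the 8 genes of signalling and transcription, 5 (62.5%, against 16.1% of all probes) were called lower and 0 higher, and the median log2 change was -1.05. Of the 44 named probes tested 43.2% were called lower, so this count does not set the group apart from them. With normexp 2 of the 8 (25%) were called lower, against 7.74% of all probes and 29.5% of the 44. Carhsp1 (A_51_P163444), an RNA-binding phosphoprotein, changed most. It was at 11.36, 11.71 and 11.66 on the CON arrays and at 9.61, 9.47, 9.94 and 10.42 on the DOX arrays. Both groups varied, but no DOX array came near the CON range. This gave a log2 change of -1.71 (SE 0.23, limma adjusted p = 0.000372).

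Trp53rka (A_51_P468505) encodes an atypical protein kinase that phosphorylates p53 and has a closely related copy in the mouse, so its signal may come from both. It was at 7.27, 7.66 and 7.58 on the CON arrays and at 6.14, 5.94, 5.92 and 5.97 on the DOX arrays. The groups were clearly apart, and the log2 change was -1.51 (SE 0.13, limma adjusted p = 3.85e-05). With normexp it was -0.98 and was not called. Alkbh4 (A_51_P209965), a dioxygenase of the AlkB family, was at 8.07, 8.37 and 8.38 on the CON arrays and at 7.07, 6.86, 7.07 and 6.84 on the DOX arrays, a log2 change of -1.32 (SE 0.12, limma adjusted p = 6.54e-05). All its DOX arrays lay about 1 log2 unit or more below the CON arrays.

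Nup50 (A_51_P411297), a protein of the nuclear pore, and Taf1a (A_51_P516057), a subunit of the factor that brings RNA polymerase I to ribosomal RNA genes, stood just past 2-fold. For Nup50 the values were 8.73, 8.77 and 8.83 on the CON arrays and 7.89, 7.58, 7.45 and 7.84 on the DOX arrays. For Taf1a they were 10.37, 10.54 and 10.21 on the CON arrays and 9.48, 9.41, 9.16 and 9.39 on the DOX arrays. In both genes the groups were well separated, and the log2 changes were -1.09 (SE 0.13, limma adjusted p = 0.000235) and -1.01 (SE 0.12, limma adjusted p = 0.000237). Taf1a was the called gene nearest to the threshold, and at -0.90 with scaling to the 75th percentile it was not called. With normexp neither gene was called, at -0.91 for Nup50 and -0.96 for Taf1a.

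Lhx1, a homeodomain factor of kidney and brain development, had a log2 change of 0.42 (limma adjusted p = 0.00957). On DOX replicate 5 its spots had an SD of 0.68, against 0.04 to 0.06 on the other DOX arrays. Without that array the change was 0.44 (limma adjusted p = 0.0122), and with the replicate block 0.36 (limma adjusted p = 0.136). E2f1, which switches on genes of DNA synthesis, had a log2 change of -0.43 (limma adjusted p = 0.0355). Both had adjusted p-values under 0.05 but were under 2-fold, with groups that did not overlap. E2f1 was dim, and its change was -1.50 with scaling to the 75th percentile, when it was called, and -0.10 with normexp (limma adjusted p = 0.167).

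Atg3 (A_51_P143855), the enzyme that joins LC3 to lipid during autophagy, bears on the study's interest in autophagy and ferroptosis. It was at 6.06, 6.15 and 6.25 on the CON arrays and at 5.84, 5.95, 6.08 and 5.83 on the DOX arrays. The groups overlapped at DOX replicate 4, and the log2 change was -0.23 (SE 0.11, limma adjusted p = 0.094). Whether Atg3 differed depends on the normalization, since with scaling to the 75th percentile the log2 change was -0.67 (limma adjusted p = 0.000756), which is also under 2-fold. That scaling moved the median log2 change of all probes tested by -0.37.

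Bambi (A_51_P248819) is a decoy receptor that dampens TGF-beta signalling. It was at 11.58, 11.63 and 11.72 on the CON arrays and at 10.42, 10.52, 10.62 and 9.93 on the DOX arrays. The CON arrays lay close together and well above all DOX arrays, and the log2 change was -1.27 (SE 0.17, limma adjusted p = 0.000381). Gabrg1, a subunit of the GABA-A receptor of neurons, was not well above background on any array and was not tested. The same holds for tyrosinase (Tyr), the pigment enzyme of melanocytes, whose signal before normalization was between 3.88 and 7.64 on the 7 arrays.

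Both olfactory receptor genes (2 of 2, against 15.5% of all probes tested) were called higher in the DOX group. With normexp 1 of the 2 was called higher, against 8.62% of all probes. Olfr166 (A_51_P271160) had the largest rise of the set, and was at 8.30, 8.21 and 8.26 on the CON arrays and at 9.98, 9.85, 9.99 and 9.96 on the DOX arrays. Both groups were tight, with SDs of 0.05 and 0.07, and the log2 change was 1.69 (SE 0.09, limma adjusted p = 7.23e-06). Olfr1307 (A_51_P362554) was at 6.74, 6.86 and 6.80 on the CON arrays and at 8.05, 8.27, 7.75 and 7.995 on the DOX arrays. Its groups were also clear of each other, with a log2 change of 1.21 (SE 0.14, limma adjusted p = 0.000146). With normexp it was at 0.90 and was not called. Olfactory receptors are known from the sensory neurons of the nose, and their genes form a large family of similar sequences. That the signal of either probe comes from the named gene was not tested.

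The other probe called higher was that of Gm9789 (A_51_P284125), a predicted protein-coding gene. It was at 6.60, 6.70 and 6.86 on the CON arrays and at 7.94, 7.92, 7.99 and 7.98 on the DOX arrays. The DOX arrays were nearly equal and lay above every CON array, with a log2 change of 1.23 (SE 0.10, limma adjusted p = 3.34e-05). With normexp it was at 0.91 and was not called.

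The remaining probes were placed in no role group. Tm9sf1 (A_51_P455410), a multispanning protein of endosomes and the Golgi, was at 12.32, 12.49 and 12.57 on the CON arrays and at 11.17, 10.98, 11.23 and 10.86 on the DOX arrays, with a log2 change of -1.40 (SE 0.13, limma adjusted p = 5.62e-05). Rab5a (A_51_P117604), the small GTPase of early endosomes, was at 13.42, 13.77 and 13.64 on the CON arrays and at 12.31, 12.07, 12.33 and 12.65 on the DOX arrays, with a log2 change of -1.27 (SE 0.16, limma adjusted p = 0.000254). Lhfp (A_51_P505868), a membrane protein with a tetraspan fold, was at 11.45, 11.91 and 11.77 on the CON arrays and at 10.54, 10.15, 10.90 and 10.25 on the DOX arrays, with a log2 change of -1.25 (SE 0.20, limma adjusted p = 0.00101). In each of these 3 genes the highest DOX array was below the lowest CON array.

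Annexin A8 (Anxa8, A_51_P207591), which binds phospholipids in the presence of calcium, was the only called probe whose groups overlapped. It was at 8.46, 8.11 and 8.88 on the CON arrays and at 7.01, 6.74, 8.44 and 7.24 on the DOX arrays. DOX replicate 4 lay inside the CON range, with its 10 spots between 8.37 and 8.51. The log2 change was -1.13 (SE 0.40, limma adjusted p = 0.0357). The call was lost with CON replicate 1 or 3 or with DOX replicate 1, 2 or 5 left out, when the log2 change was -1.14, -0.93, -1.01, -0.92 and -1.09 and the adjusted p 0.0831, 0.119, 0.0822, 0.0809 and 0.0639 in that order. It was also lost with the methods' t-test (adjusted p = 0.0964) and with normexp, at -0.88.

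A further 2 called probes had accessions that were not matched to a symbol. The probe A_51_P237746 was at 11.67, 11.96 and 11.90 on the CON arrays and at 10.42, 10.07, 10.37 and 10.08 on the DOX arrays, with a log2 change of -1.61 (SE 0.14, limma adjusted p = 3.88e-05). The probe A_51_P213099 was at 5.79, 5.49 and 5.59 on the CON arrays and at 3.34, 2.93, 3.47 and 2.20 on the DOX arrays. It was well above background on all 3 CON arrays but, of the DOX arrays, on replicate 4 only, so its fitted log2 change of -2.64 (SE 0.29, limma adjusted p = 0.000139) rests on DOX values mostly not above background and does not measure the size of the difference. With normexp it was -0.71 and was not called.

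The last 7 tested probes were not called. Rps4l, a transcribed pseudogene related to a ribosomal protein gene, had a log2 change of -0.95 (limma adjusted p = 0.00147), with groups that did not overlap. Uhrf1bp1l, a lipid transfer protein, had a log2 change of -0.54 (limma adjusted p = 0.127). It was at 11.47, 11.47 and 11.17 on DOX replicates 1, 2 and 4 but at 12.45 on DOX replicate 5, above every CON array. Without DOX replicate 5 its change was -0.81 (limma adjusted p = 0.00118). With the replicate number as a block it was -0.68 (limma adjusted p = 0.0321), and both values are under 2-fold. Myelin basic protein (Mbp) was spread from 4.23 to 6.79 on the DOX arrays, around CON values of 4.998 to 5.59, with a log2 change of 0.16 (limma adjusted p = 0.809). Duox1, an oxidase that makes hydrogen peroxide in thyroid and airway, had a log2 change of -0.12 (limma adjusted p = 0.333), and Spats1, a gene of the testis, had a log2 change of 0.16 (limma adjusted p = 0.291). Spats1 turned to -0.54 (limma adjusted p = 0.00722) when arrays were scaled to the 75th percentile. The probes A_51_P425205 and A_51_P444920 had log2 changes of -0.004 and -0.22 (limma adjusted p = 0.982 and 0.12). Under the same scaling the change of A_51_P444920 was -0.56 (limma adjusted p = 0.00341).

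In all, 33 of the 44 tested probes had a limma adjusted p under 0.05, or 75%, against 65.6% of all probes tested. These were the 22 called probes and 11 with a change under 2-fold, 2 of them higher and 9 lower in the DOX group. For the other 11 a difference was not detectable with 3 and 4 arrays under quantile normalization and no block, which does not show that the groups were alike.

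The repeated printing gives the error of a single spot. Over the 44 tested probes and 7 arrays, the SD of the 10 spots within an array had a median of 0.05 log2 units, whereas the SD between arrays had a median of 0.14 in the CON group and 0.21 in the DOX group. The SD between the DOX arrays was higher than that between the CON arrays for 36 of the 44 probes (81.8%), against 61.8% of all probes tested.

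Normalization bears on the direction of these results, because the DOX arrays were brighter. Before it, the mean log2 signal was higher in the DOX group for 29 of the 44 probes (65.9%, against 77.7% of all probes tested) and lower for 15 (34.1%, against 22.3%). Of the 19 probes called lower, 13 (68.4%) also had the lower mean log2 signal before normalization, against 87.6% of all probes called lower. The groups did not overlap then for 4 of the 19 (21.1%, against 50.5%), namely Prdx2, Gpi1, Trp53rka and A_51_P213099, the last of which passed the background filter through the CON arrays. The other 6 were lower only relative to the other probes of the same arrays. Before normalization the log2 difference of DOX from CON was 0.27 for Taf1a, 0.10 for Dnajc11, 0.06 for Lhfp, 0.06 for Nup50, 0.03 for Bambi and 0.01 for Rab5a.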

How the data were processed

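The 7 arrays were grouped by their titles, and the dose and day come from the methods. The authors deposited, per the file headers, Agilent Feature Extraction 11.0.1.1 output in which the intensity of each spot was background-subtracted within the array and not normalized between arrays. The authors' table of normalized values holds none of these probes and was not used here.

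The log2 intensity of the 61537 spots that are not controls was quantile-normalized across the arrays, which follows the submitters' sample sheet. Spots with uneven brightness were left out (1 of the 3220 spots of the 46 probes), and the mean was taken over the spots of each probe. A probe counted as well above background on an array where most of its spots did. None of these 3220 spots was saturated. The test was limma 3.58.1 in R 4.3.3, in place of the methods' t-test, with 3 CON and 4 DOX arrays, no covariates, and the study's thresholds. It was tested on simulated data. Python 3.11.15 with pandas 2.3.3 wrote the tables.

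Every probe is named except 1 that is counted but not reported here, with all array values for called probes, Atg3 and Actb. The members, the role groups and the tests were chosen with earlier results of these data known. The alternatives were 75th percentile scaling, normexp, other background filters, the methods' t-test, limma's treat against 2-fold, a replicate block, the median of the spots, leaving out population outlier spots (117 of the 3220), and leaving out each array. Normexp used the median spot signal and the population outlier setting was added after the data were seen. Probe sequences and positions were not used here, nor were cell type markers, since the files name no other transcripts. Within a group, log2 differences between arrays had an SD of 0.409 to 0.62, so no array was a copy. The number of arrays limits the precision.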

Additional observations from a re-analysis of the deposited data

How the results depend on the processing

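The number of probes called higher was 3 under all settings except normexp and the test against a 2-fold change, both of which gave 1, and the leaving out of arrays, which gave 3 to 4. The number called lower was 5 under the test against a 2-fold change, which is stricter by construction, against 19, and 18 to 19 with an array left out. Over all probes tested, normexp gave 4795 called higher and 4308 lower, against 8605 and 8981, and limma's treat against 2-fold gave 4250 and 3567. Scaling to the 75th percentile gave 15314 called lower and 6149 higher, and moved the median log2 change of all probes tested from -0.07 to -0.45, a shift of -0.37. With an array left out, 8387 to 8689 were called higher and 8779 to 9136 lower. The cause of these shifts was not tested.

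Reversals concerned only probes that were not called. With scaling to the 75th percentile the log2 change of Spats1 was -0.54 and that of Mbp -0.49, and with an array left out that of Mbp ranged from -0.29 without DOX replicate 4 to 0.57 without DOX replicate 5. The change of A_51_P425205, at -0.004, was 0.011 with normexp, 0.024 with the replicate block and 0.0054 without population outlier spots. With an array left out it ranged from -0.15 to 0.10, and was above 0 without CON replicate 2, CON replicate 3 or DOX replicate 2. With all arrays kept, 358 of the single-probe values did not cross the thresholds, 27 no longer passed and 5 newly passed. With an array left out, the numbers were 290, 8 and 6. Chgb, at 0.70 without DOX replicate 5, newly passed without DOX replicate 2, at 1.61, as did Rps4l without CON replicate 2, at -1.15, Acaa2 without DOX replicate 4, at -1.01, and Hspb7 without CON replicate 3 or DOX replicate 1 or 5, at -1.06, -1.01 and -1.17. Taf1a no longer passed without CON replicate 2 or DOX replicate 4, at -0.93 and -0.95. Under normexp, 13 probes were called lower.

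The groups share the replicate numbers 1 and 2, for which the correlation across probes of the deviations from the group means was 0.03 and 0.0045. Arrays of the same number therefore showed no shared deviation across the probes. Whether the animals were handled in pairs was not tested. The replicate block draws each change from the arrays of these shared numbers only. CON replicate 3 and DOX replicates 4 and 5 add nothing to it. With this block, 3 probes were called higher and 20 lower, against 15.6% and 16.4% of all probes tested. Dnajc11 was no longer called at -0.87, and Acaa2 and Hspb7 were called at -1.04 and -1.15.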

Other observations

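Among the DOX arrays, replicate 5 was the array farthest from the median of its group for 19 of the 44 tested probes, replicate 4 for 15, replicate 2 for 7 and replicate 1 for 3. Of the 19 probes called lower, 8 were lowest on DOX replicate 5, 6 on replicate 2, 4 on replicate 4 and 1 on replicate 1. These counts were not compared with those over all probes tested, so they do not set the named probes apart. DOX replicate 5 was at once the highest DOX array for Chgb (9.85), Actb (10.11), Uhrf1bp1l (12.45), Hspb7 (13.57) and Carhsp1 (10.42) and the lowest for Gsdmd (7.55), Dnajc11 (7.59), Bambi (9.93), Cav2 (11.64) and Cep41 (6.51). DOX replicate 4 stood apart for Anxa8 (8.44, against 6.74 to 7.24 on the other DOX arrays) and for Mbp (6.79, against 4.23 to 5.77). These genes were singled out after their values were seen. None of the 44 DOX groups had a single array outlying by Dixon's test for 4 samples, which chance alone marks in about 5% of groups.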
